A study of Arabidopsis thaliana with 6 samples.

Results

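The 5 genes described here encode small heat shock proteins of Arabidopsis thaliana: AT2G29500, AT1G53540, AT1G54050, AT5G37670 and AT5G51440. They were chosen as a list of loci, with earlier results of these data known. Each had 1 probe set naming that gene alone, so all 5 were measured, by 5 of the 22746 probe sets used. The probe annotation gives these loci no symbol, and the protein classes named below are background knowledge. The list places 4 of them among the cytosolic classes and AT5G51440 in the mitochondrion, although AT5G37670 is also known for a peroxisomal targeting signal at the end of its protein.

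Small heat shock proteins are chaperones that work without ATP. They bind partly unfolded proteins through a conserved alpha-crystallin domain and hold them in a soluble state until HSP70, HSP40 and HSP101 machines refold them. In leaves their genes are known to be almost silent under normal growth and to be switched on by heat shock factors during heat and other stresses, oxidative stress included.

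All plants were flu mutants (allele flu1-1) in the Landsberg erecta ecotype, grown on soil for 3 weeks in continuous light, and no wild type was among the arrays, so the mutant background is common to both treatments. The FLU protein is a negative regulator of chlorophyll synthesis, and plants without it overaccumulate protochlorophyllide in the dark. Rosette leaves were harvested 1, 2 or 4 h after a spray of paraquat in 0.1% Tween, or after a mock spray of 0.1% Tween alone. Paraquat, also called methyl viologen, is a herbicide that takes electrons from photosystem I and reduces oxygen to superoxide. Titles give its dose as 20 mM and the protocol as 20 microM, a discrepancy that the labels do not resolve. Each of the 6 combinations was measured on 1 ATH1 array, from the pooled RNA of 2 experiments with the leaves of 5 to 6 plants per sample, so no spread between plants or experiments can be seen.

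Values are signals on a linear scale, and ratios are differences of log2(signal + 34). A signal of 86.2, the 40th percentile of all probe sets, served as the floor below which a signal was read as dim. Median signals lay between 158 and 162 on the 6 arrays. Of 11 leaf mesophyll markers, 1 had a probe set of its own, RCA (Rubisco activase), with signals of 14415 to 15210 in paraquat leaves and 14855 to 16284 in mock leaves. The 3 of 6 root markers measured did not exceed 95.9 on any array and the 3 of 5 pollen markers did not exceed 22.2, while none of 6 seed markers had a probe set of its own. Summed over the 3 root markers, signals ran from 64.2 to 165 in paraquat leaves and from 45.6 to 131 in mock leaves.

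At 4 h all 5 small heat shock protein genes had a higher signal in paraquat than in mock leaves, by 1.01 to 3.57 log2 units, a difference of at least 2-fold that 1.24% of all probe sets showed. At 1 and 2 h none of the 5 differed by 1 log2 unit in either direction. With a pseudocount 4 times smaller, the 1 h ratios of AT2G29500 (1.38), AT1G53540 (1.36) and AT1G54050 (-1.06) passed that size, all between signals below the floor. On each of the 5 probe sets the paraquat 4 h array was the highest of the 6 arrays, as it was for 15.4% of all probe sets that passed the floor anywhere. AT2G29500 and AT1G53540 passed the floor on that array alone, so their place in this count was fixed by the floor and the count is a description. With 1 array per treatment and hour, none of these single-hour differences has a replicate check, and in whole leaves a change in how many cells express a gene cannot be told apart from a change in RNA per cell.

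The cytosolic class I gene AT2G29500 had signals of 31.5, 33.8 and 658 at 1, 2 and 4 h in paraquat leaves, against 6.87, 47.8 and 24.4 in mock leaves. Only the paraquat 4 h array lay above the floor, so the other 5 signals are dim and their order was not read. As log2 ratios of paraquat over mock, these signals gave 0.68 at 1 h, -0.27 at 2 h and 3.57 at 4 h. The paraquat 4 h signal was 7.64-fold the floor.

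AT1G53540, the other class I gene, had signals of 29.0, 43.6 and 414 at 1, 2 and 4 h in paraquat leaves, against 6.12, 25.1 and 31.8 in mock leaves. It too exceeded the floor in paraquat leaves at 4 h and nowhere else, with a signal 4.80-fold the floor. Its log2 ratios of paraquat over mock were 0.65 (1 h), 0.39 (2 h) and 2.77 (4 h). Both class I genes were thus dim in mock leaves at every hour and bright in paraquat leaves at 4 h only.

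AT1G54050 encodes a small heat shock protein of cytosolic class III. Its signals were 34.4, 91.1 and 868 in paraquat leaves at 1, 2 and 4 h, against 81.1, 64.0 and 83.7 in mock leaves. In mock leaves the signal stayed just under the floor at all 3 hours, whereas in paraquat leaves it was under the floor at 1 h, just over the floor at 2 h and 10.1-fold the floor at 4 h. The paraquat/mock log2 ratio was -0.75 at 1 h, followed by 0.35 at 2 h and 2.94 at 4 h. The 1 h ratio compares signals that were both below the floor, so its sign was not read.

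AT5G37670, the gene whose protein is known for a peroxisomal signal, was above the floor on 5 of the 6 arrays. Its signals were 114, 95.2 and 275 in paraquat leaves at 1, 2 and 4 h, against 84.0, 153 and 119 in mock leaves. The groups interleaved at 1 and 2 h, and the paraquat 4 h array stood 1.80-fold over the next array, mock 2 h. Paraquat over mock, the log2 ratio stood at 0.32 (1 h), -0.53 (2 h) and 1.01 (4 h). The ratio at 4 h lay at the edge of 2-fold: it was 0.98 after quantile normalization and 0.69 with a pseudocount 4 times larger.

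The mitochondrial gene AT5G51440 was above the floor on all 6 arrays. Its signals were 119, 396 and 836 in paraquat leaves at 1, 2 and 4 h, against 136, 616 and 130 in mock leaves. Signal climbed through the 3 harvests in paraquat leaves, while mock leaves had a high value at 2 h and values close to each other at 1 and 4 h. Paraquat over mock, the log2 ratio stood at -0.15 (1 h), -0.60 (2 h) and 2.41 (4 h). Paraquat at 4 h was 1.36-fold the mock signal at 2 h, and between these harvests the paraquat signal was 1.02 log2 units higher at 4 h, while the mock signal had a log2 ratio of -1.99.

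**Figure D1:**
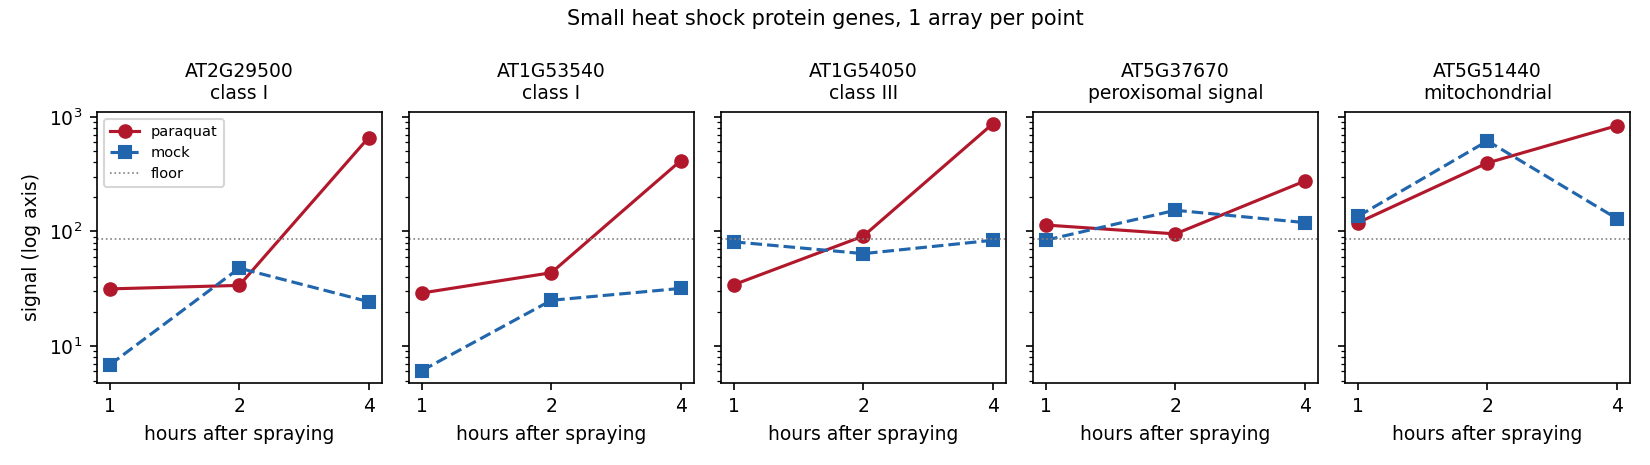
Signals of the 5 small heat shock protein genes (log axis) at the 3 harvest hours, 1 array per point, in paraquat leaves (red circles) and mock leaves (blue squares), with the floor of 86.2 dotted. Every paraquat 4 h point is the highest of its panel, at 275 to 868, and only AT5G51440 has a mock point of similar height, 616 at 2 h.

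Set against all probe sets, the 4 h ratios of the members were high. Among 13914 probe sets with either 4 h array over the floor, ordered from the highest ratio down, AT2G29500 was at place 3, AT1G54050 at place 11, AT1G53540 at place 13, AT5G51440 at place 21 and AT5G37670 at place 169. Of the members, 5 of 5 were at least 2-fold higher at 4 h, where 1.24% of all probe sets were, and 4 of 5 at least 3-fold higher, where 0.417% were. None was at least 2-fold lower (0.517% of all). For AT2G29500, AT1G53540 and AT1G54050 the mock 4 h signal was below the floor, so these 3 entered the count through the paraquat array alone and could hardly have entered it with a low ratio. The median 4 h ratio of the 5 was 2.77, against -0.02 over the 13914 probe sets. Since the members were chosen with earlier results of these data known, these places, counts and medians are a description.

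At 1 h, 2 of the 5 genes exceeded the floor in either treatment and 0 of them were at least 2-fold higher or lower (0.457% and 0.324% of all probe sets). At 2 h, 3 were above the floor and 0 were at least 2-fold higher or lower (0.45% and 0.288% of all). AT5G51440 and AT5G37670 lay far down the 2 h order, at places 13979 and 13884 of 14217, with ratios inside the 1st to 99th percentile of all probe sets, -0.69 to 0.81. AT2G29500, AT5G37670 and AT5G51440 combined a ratio below 0 at 2 h with one of at least 2-fold at 4 h. This pair of ratios was thus found for 3 of the 5 genes, and for 0.289% of the probe sets that exceeded the floor anywhere. All 5 genes met the 4 h part, and they were chosen with earlier results known, so this count is a description. Among the 3 genes exceeding the floor at 2 h, 2 had a 2 h ratio below 0, as did 49.9% of all. The 2 h ratio of AT2G29500 compares 2 signals below the floor.

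**Figure D2:**
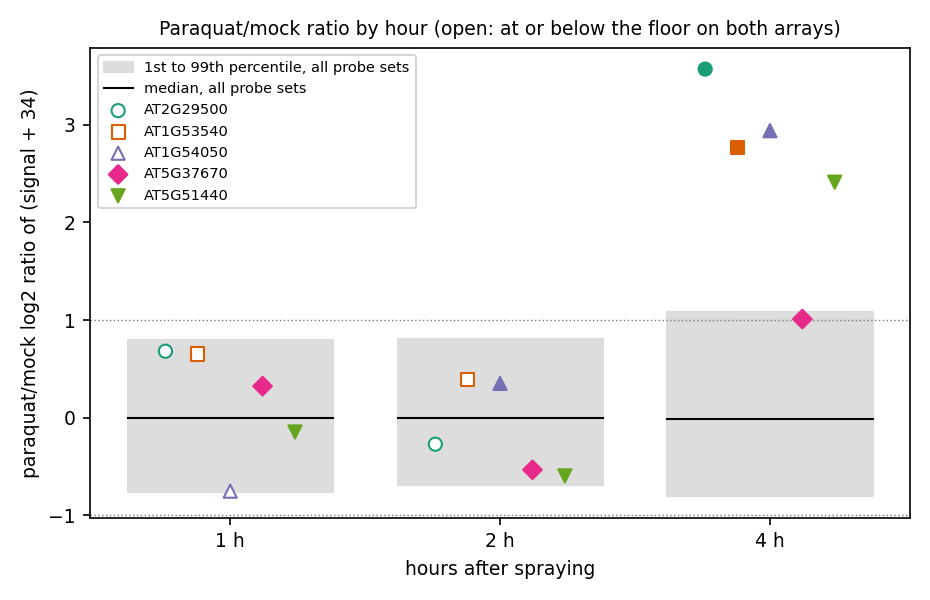
Paraquat/mock log2 ratio of (signal + 34) of the 5 genes at 1, 2 and 4 h, over the range from the 1st to the 99th percentile of all probe sets above the floor at that hour (grey) and their median (line); open symbols mark genes at or below the floor on both arrays. At 4 h 4 genes stand at 2.41 to 3.57, above the 99th percentile of 1.08, and AT5G37670 at 1.01 is inside the range.

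Within paraquat leaves, all 5 genes were at least 2-fold higher at 4 h than at 2 h, by 1.02 log2 units for AT5G51440 to 3.35 for AT2G29500, where 1.66% of all probe sets were. All 5 were also at least 2-fold higher at 4 h than at 1 h, by 1.07 for AT5G37670 to 3.72 for AT1G54050 (2.88% of all). AT2G29500 and AT1G53540 entered both counts through the paraquat 4 h array alone. AT1G54050 entered the count of 4 h over 1 h in the same way. Both counts are therefore a description. With a pseudocount 4 times larger these counts were 3 and 4 of 5, as AT5G51440 had 0.87 and AT5G37670 0.83 for 4 h over 2 h, and AT5G37670 had 0.72 for 4 h over 1 h. From 1 to 2 h in paraquat leaves, AT5G51440 was 1.49 log2 units higher and AT1G54050 0.87 higher, while AT5G37670 had a ratio of -0.19. One of the 3 genes above the floor was at least 2-fold higher over that interval (1.06% of all).

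Mock leaves also differed between hours. AT5G51440 was 1.94 log2 units higher at 2 h than at 1 h, and it was the 1 of 2 members above the floor that was at least 2-fold higher there (1.11% of all). Its ratio of 4 h over 2 h was -1.99 (1.8% of all were at least 2-fold lower). AT5G37670 had smaller mock ratios in the same directions, 0.66 for 2 h over 1 h and -0.28 for 4 h over 2 h. From 1 to 4 h the mock ratios of these 2 genes were -0.05 and 0.38, so the mock level of AT5G51440 at 4 h was close to that at 1 h. The mock array of 2 h was the highest of the 3 mock arrays for 3 of the 5 genes, against 31.8% of all probe sets. A mock 2 h signal below the floor underlies this for AT2G29500.

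The paraquat effect averaged over hours was tested with limma, with hour as a block, for 13837 probe sets exceeding the floor on 3 or more arrays. Only AT5G37670 and AT5G51440 qualified, and neither passed. AT5G51440 had a mean log2 ratio of 0.56 ± 0.47 (moderated SE, n = 3 hours, limma adjusted p = 0.75) and AT5G37670 one of 0.27 ± 0.26 (limma adjusted p = 0.79). No member was called, where 0.318% of all probe sets were. At an unadjusted p under 0.05 it was 0 of 2, beside 1428 of the 13837. Without the 4 h arrays both means lay below 0, at -0.37 and -0.11.

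With a looser filter, which asked for 1 array over the floor, all 5 genes could be fitted, and 0 of 5 were called for the averaged effect, beside 0.296% of 14878 probe sets. At an unadjusted p under 0.05 it was 1 of 5 (AT1G53540), beside 1489 of the 14878. AT2G29500 then had a mean of 1.33 ± 0.60 (limma adjusted p = 0.52), AT1G53540 of 1.27 ± 0.43 (limma adjusted p = 0.35) and AT1G54050 of 0.85 ± 0.55 (limma adjusted p = 0.68). These 3 genes passed the looser filter only on paraquat arrays, so their means could hardly be low and are a description. In this test the 3 hours stand in for replicates. A ratio that is high at 4 h alone therefore widens the error as well as raising the mean.

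The change of the effect with hour was tested as the slope of the ratio on log2 of the hour. AT5G51440 had a slope of 1.28 ± 0.31 log2 units per doubling of the hour (limma adjusted p = 0.080) and AT5G37670 one of 0.34 ± 0.27 (limma adjusted p = 0.66). Neither passed, where 0.773% of all probe sets were called. At an unadjusted p under 0.05 it was 1 of 2, beside 1695 of 13837 probe sets. AT5G51440 was called after quantile normalization (limma adjusted p = 0.0085), with arrays centred on the 75th percentile (limma adjusted p = 0.0042) and with a pseudocount 4 times larger (limma adjusted p = 0.0087). It was not called without the variance trend (limma adjusted p = 0.38), without the filter (limma adjusted p = 0.56) or with hour as a straight line (limma adjusted p = 1.00).

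With the looser filter, the ratio of AT1G54050 rose with hour, by 1.84 ± 0.23 per doubling (limma adjusted p = 0.0056), 1 of 5 members and 0.692% of 14878 probe sets. AT1G54050 passes that filter only on paraquat 2 h, where its signal of 91.1 is just over the floor, and on paraquat 4 h, where it is high. On simulated data the slope test called more unchanged probe sets than its threshold allows, so its calls are less certain than their adjusted p. The slope was 1.44 ± 0.48 for AT2G29500 (limma adjusted p = 0.24) and 1.06 ± 0.37 for AT1G53540 (limma adjusted p = 0.26). Without any filter AT1G54050 was not called (limma adjusted p = 0.36), and no probe set was.

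**Figure D3:**
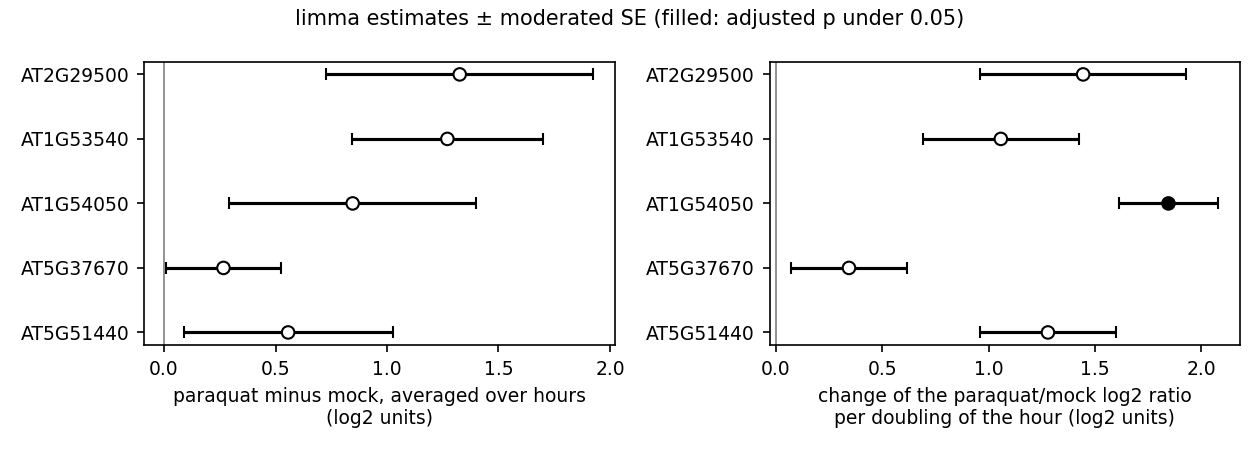
limma estimates with moderated SE bars for the 5 genes among the 14878 probe sets of the looser filter: the paraquat effect averaged over hours (left, log2 units) and the change of the paraquat/mock log2 ratio per doubling of the hour (right, log2 units). All 10 estimates are above 0, and the filled symbol, the slope of AT1G54050 (1.84 ± 0.23), is the one with an adjusted p under 0.05. Both estimates of a gene draw on its 4 h ratio. AT2G29500, AT1G53540 and AT1G54050 pass this filter only on paraquat arrays, so the signs are a description.

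Change with hour, averaged over both treatments with 2 arrays per hour, was tested with a moderated F. AT5G51440 stood 1.71 ± 0.58 log2 units higher at 2 h than at 1 h and 1.23 ± 0.58 higher at 4 h than at 1 h (limma adjusted p = 0.15). AT5G37670 had 0.24 ± 0.32 and 0.72 ± 0.32 for the same differences (limma adjusted p = 0.29). Of the 2 members 0 passed, where 17.5% of all probe sets did. At an unadjusted p under 0.05 it was 1 of 2, beside 4329 of 13837 probe sets. With the looser filter 0 of 5 passed, where 16.6% did, so a changing transcript was common among these arrays. At an unadjusted p under 0.05 it was 3 of 5, beside 4483 of 14878 probe sets. Of these members, AT1G53540 and AT1G54050 passed the looser filter only on paraquat arrays.

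The 5 genes did not share one profile. Over the 6 arrays, Pearson's r between members on the log2 scale ran from 0.66 for AT1G54050 with AT5G51440 to 0.98 for the class I pair AT2G29500 and AT1G53540. The 4 pairs with AT5G51440 lay between 0.66 and 0.74, and the other 6 between 0.83 and 0.98. These values share 6 arrays, and the paraquat 4 h array is the highest point of every gene, so they are given as a description.

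The genes whose values over the 6 arrays were most like the mean of the 5 members, among 1159 probe sets naming 1 gene that varied by at least 1 log2 unit, began with AER (AT5G16970, an alkenal reductase that acts on reactive carbonyls), at r = 0.96. UGT73B1 (AT4G34138, r = 0.96) and UGT73B5 (AT2G15480, r = 0.93) are UDP-glycosyltransferases. AT1G71000 (r = 0.94) encodes a DnaJ-domain protein of the HSP40 type. The others were AT5G43450 (r = 0.95), AT3G10020 (0.95), AT5G54300 (0.94) and AT3G50270 (0.94). AER had signals of 432, 699 and 1720 at 1, 2 and 4 h in paraquat leaves, against 474, 547 and 641 in mock leaves, and UGT73B5 had 62.6, 274 and 995, against 30.7, 91.2 and 102. AT1G71000 had 30.0, 16.2 and 139 in paraquat leaves, against 17.2, 27.2 and 22.6 in mock leaves, a dim probe set brighter than the floor in paraquat leaves at 4 h only. UGT73B1 too exceeded the floor on that array only, with a signal of 153. The members' mean was highest on the same array, so these r values are given as a description.

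Taken singly, AT2G29500 was most like AT1G71000 (r = 0.98), AT1G54050 most like AER (r = 0.97) and AT5G37670 most like AT1G30070 (r = 0.97). AT1G53540 was most like the mitochondrially encoded nad6, a subunit of respiratory complex I (r = 0.98). AT2G29500, AT1G53540 and AT1G71000 exceeded the floor on paraquat 4 h alone, so their r values depend strongly on that 1 array. The mitochondrial gene AT5G51440 was most like Fes1A (AT3G09350), known as a partner of cytosolic HSP70, at r = 0.99. Fes1A had signals of 547, 1142 and 1794 at 1, 2 and 4 h in paraquat leaves, against 595, 1827 and 574 in mock leaves. As for AT5G51440, its mock signal was high at 2 h and lower at 1 and 4 h, and its ratio was -0.66 at 2 h and 1.59 at 4 h.

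Other small heat shock protein genes were measured in part. Of 14 listed, 5 had a probe set of their own, 4 of them exceeding the floor somewhere and 3 on 3 or more arrays. AT4G21870, of class IV, was brighter than every member on each of the 6 arrays. Its signals were 3322, 5500 and 1118 at 1, 2 and 4 h in paraquat leaves, against 2952, 3559 and 174 in mock leaves. Its 4 h ratio of 2.47 was close to that of AT5G51440, at place 16 of 13914, but both treatments were lower at 4 h than at 1 h, with log2 ratios of -1.54 in paraquat and -3.84 in mock leaves. Its level changed with hour (limma adjusted p = 0.0037), with a difference of -3.19 ± 0.44 between 4 and 2 h, and its paraquat/mock ratio rose by 1.15 ± 0.15 per doubling of the hour (limma adjusted p = 0.0038). The gene was named for the size of its 4 h ratio, which enters the slope, so the slope is a description. That slope was not called without the filter (limma adjusted p = 0.36), without the variance trend (limma adjusted p = 0.26) or with hour as a straight line (limma adjusted p = 1.00).

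Among these other small heat shock protein genes, AT2G19310 had paraquat/mock ratios of -0.20, -0.48 and 0.22 at 1, 2 and 4 h. AT5G54660 had -0.47, -0.30 and 0.05. AT2G19310 changed with hour (limma adjusted p = 0.027), standing 0.81 ± 0.16 higher at 2 h than at 1 h. AT4G10250, of the endoplasmic reticulum, was above the floor on the mock 1 h array alone and had a 4 h ratio of 0.18 between dim signals. The mitochondrial AT1G52560, named after its values were seen, was below the floor on all 6 arrays, with a highest signal of 28.3 on paraquat 4 h. For the averaged effect 0 of 3 tested genes passed with limma (1 at an unadjusted p under 0.05), for the change of the effect with hour 1 of 3, and for the change with hour 2 of 3. Of all 13837 probe sets, 0.318%, 0.773% and 17.5% passed these tests. For the averaged effect 1428 of them had an unadjusted p under 0.05.

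Of 40 genes of HSP70, HSP90, HSP101, HSP40, chaperonins and their partners, 8 had a probe set of their own, 7 of them exceeding the floor on 3 or more arrays. None of 21 heat shock factor genes did, so those regulators were not analysed here. In mock leaves 7 of the 7 chaperone genes above the floor were higher at 2 h than at 1 h, with a median log2 ratio of 0.70, where 52.6% of all probe sets were higher (median 0.02). From 2 to 4 h in mock leaves 7 of 7 had a ratio below 0, with a median of -0.86 (52.2% of all, median -0.02). Paraquat over mock, 6 of 7 were below 0 at 2 h (median -0.38, against 49.9% of all and a median of 0.00), and 5 of 7 above 0 at 4 h (median 0.27, against 47% of all). These comparisons share the mock 2 h and mock 4 h arrays. As with the members, which were chosen with earlier results known, no test was made of a list.

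Hop3 (AT4G12400), which links HSP70 to HSP90, had signals of 51.6, 126 and 153 at 1, 2 and 4 h in paraquat leaves, against 74.4, 265 and 54.3 in mock leaves, and a 4 h ratio of 1.08. AT2G20560, an HSP40 family gene, had 229, 293 and 504, against 272, 481 and 247, and a 4 h ratio of 0.94. ROF2 (AT5G48570), a peptidyl-prolyl isomerase of the FK506-binding type, had 510, 1502 and 741, against 639, 2050 and 421, and a 4 h ratio of 0.77. In all 3 genes mock exceeded paraquat at 2 h and paraquat exceeded mock at 4 h, the order seen for AT5G51440. They were named for the size of their 4 h ratio, so this order is a description. HSP70-2 (AT5G02490) and HOP2 (AT1G62740), named after their values were seen, had 4 h ratios below 0, at -0.25 and -0.23. The 1 h signals of Hop3 were both below the floor. HSA32 (AT4G21320), known for long-term heat tolerance, exceeded the floor on paraquat 1 h only and had a 4 h ratio of 0.55. Its 2 h ratio was 0.20, between signals below the floor.

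ROF2 changed with hour averaged over treatments, standing 1.56 ± 0.26 higher at 2 h than at 1 h and 1.59 ± 0.26 lower at 4 h than at 2 h (coefficient -1.59, limma adjusted p = 0.0060). HSP70-2 (AT5G02490), named after its values were seen, was the other of 2 among 7 tested chaperone genes to change with hour (limma adjusted p = 0.0045), with 0.54 ± 0.11 from 1 to 2 h and -0.80 ± 0.11 from 2 to 4 h. Of all 13837 probe sets 17.5% changed with hour. For the averaged effect of paraquat 0 of 7 passed with limma (1 at an unadjusted p under 0.05), and for its change with hour 0 of 7 passed (3 at an unadjusted p under 0.05). Of all probe sets, 0.318% and 0.773% passed, and 1428 and 1695 had an unadjusted p under 0.05.

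**Figure D4:**
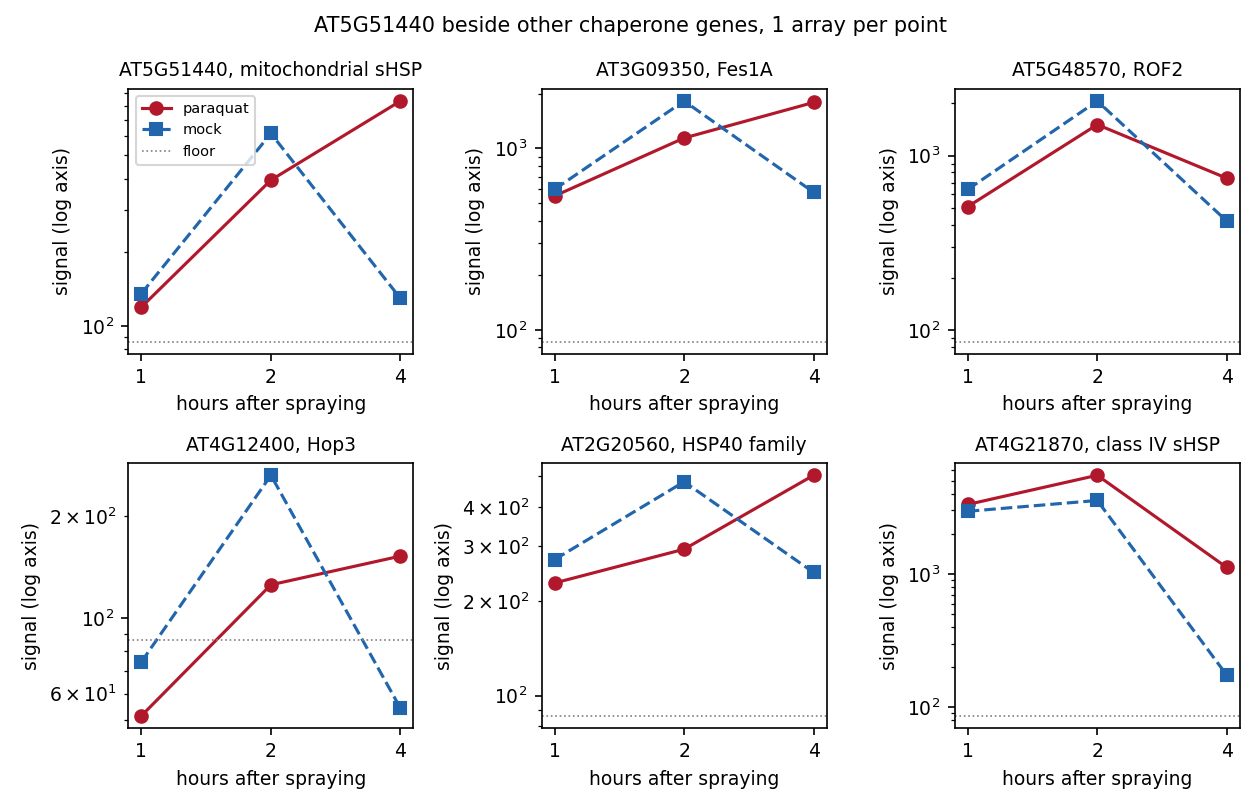
Signals (log axes with their own scale per panel) of AT5G51440, Fes1A, ROF2, Hop3, AT2G20560 and AT4G21870 at 1, 2 and 4 h, 1 array per point, in paraquat leaves (red circles) and mock leaves (blue squares), with the floor dotted. In the first 5 panels the mock line peaks at 2 h, above paraquat, and lies below paraquat at 4 h. AT4G21870 is lower at 4 h than at 2 h in both treatments. ROF2, Hop3, AT2G20560 and AT4G21870 were picked for the size of their 4 h ratio, and Fes1A for its likeness to AT5G51440.

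Of 13 protein folding genes of the endoplasmic reticulum, 3 had a probe set of their own, and none was at least 2-fold different between paraquat and mock leaves at any hour. All 3 were below 0 for paraquat over mock at 2 h (median -0.29), where 49.9% of all probe sets were. All 3 were above 0 for mock 2 h over 1 h (median 0.22), where 52.6% of all were. The 4 h ratios were -0.35 for CNX2 (AT5G07340, a calnexin), -0.06 for CRT1b (AT1G09210, a calreticulin) and 0.16 for BZIP60 (AT1G42990, a regulator of the unfolded protein response). For the averaged effect 0 of 3 passed with limma (1 at an unadjusted p under 0.05), and for its change with hour 0 of 3 (0 at an unadjusted p under 0.05). Of all 13837 probe sets, 0.318% and 0.773% passed, and 1428 and 1695 had an unadjusted p under 0.05. CRT1b, 1 of the 3, changed with hour averaged over treatments (limma adjusted p = 0.016), by 0.55 ± 0.10 from 1 to 4 h. Of all probe sets 17.5% changed with hour.

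The paraquat 4 h array, on which every member was highest, had a median signal of 158, against 158 on the mock 4 h array. Because the authors' scaling gave every array the same trimmed mean, 500.04, similar medians cannot show whether the paraquat 4 h array was deviant. Paraquat 4 h exceeded the next array by at least 2-fold for 3 of the 5 members (AT2G29500, AT1G53540 and AT1G54050) and for 0.229% of all. These 3 genes passed the floor only on paraquat arrays, so nothing is read from that count. The 3' to 5' signal ratio of the GAPDH control, a measure of RNA integrity, was 0.892 on the paraquat 4 h array and 1.01 on mock 4 h, and that of the actin control was 6.66 on paraquat 4 h and 7.65 on mock 4 h. Signals of the 25S ribosomal RNA control were 243 on paraquat 4 h and 92.8 on mock 4 h. The paraquat 1 h array, which enters the 1 h ratios, the changes from 1 h and the slopes, had an actin ratio of 3.00, against 6.66 to 9.16 on the other 5 arrays. Its GAPDH ratio was 1.15 and its 25S signal 308, the highest of the 6 arrays in both. The part of these differences in the results was not tested.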

How the data were processed

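Leaf RNA was hybridised to 6 ATH1 arrays, grouped by the treatment and hour in the sample titles. The deposited values are signal intensities on a linear scale for 22810 probe sets, made with MAS5 per the submitters' processing notes, with no version in the sources used here. The mean after trimming 2% at each end was 500.04 on each array, so the authors' values had been scaled to a common level, and only relative changes can be seen. Depth does not apply to arrays, and their number limits the precision. Detection calls were not used here.

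After removal of 64 control probe sets, signals were analysed as log2(signal + 34), the rounded 25th percentile, which makes ratios of dim probe sets too small. Tests used limma 3.58.1 in R 4.3.3 (lmFit, eBayes with a variance trend), two-sided, with Benjamini-Hochberg adjustment over all tested probe sets and called at 0.05. Errors given after ± are limma's moderated standard errors. The averaged and hour tests had 2 residual degrees of freedom, the slope test 1. Tested on simulated data, all 3 tests found nearly all probe sets made to differ but called more unchanged probe sets than the adjusted threshold allows, the slope test most. p-values measure the spread between pooled arrays, with hours or treatments in place of replicates.

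Names came from the given probe annotation, matched by gene number to the TAIR10.1 table (13436 of 13513 probe sets naming 1 gene). The members and gene lists were chosen with earlier results of these data known. Beside the 5 members, the text names up to 4 genes per list with the largest 4 h ratio in size and the 8 probe sets most like the members' mean, plus the 1 most like each member. No sequences or coordinates are printed, since no genome build is named by the files. Alternatives were the pseudocount, normalization, filter, variance trend, block and leaving out an hour.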

Additional observations from a re-analysis of the deposited data

Results flagged for a closer look

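The paraquat/mock ratio differed between harvest hours, by the limma test of its change per doubling of the hour, for 4 of the genes named. The slope was 1.84 for AT1G54050 (limma adjusted p = 0.0056, fitted with the looser filter, which it passes only on the paraquat 2 h and 4 h arrays that make the slope), 1.15 for AT4G21870 (limma adjusted p = 0.0038), 0.75 for AER, AT5G16970 (limma adjusted p = 0.014), and 1.17 for UGT73B5, AT2G15480 (limma adjusted p = 0.012). For the last 3 the adjusted p over the alternatives ran up to 1.00, reached with hour as a straight line, and AT1G54050 was not called without the filter (limma adjusted p = 0.36). AT4G21870 was named for the size of its 4 h ratio. AER and UGT73B5 were named for likeness to a members' mean that is highest on paraquat 4 h. Those values enter the slope, so these 3 calls are a description. Of all probe sets, 0.773% were called with the main filter and 0.692% with the looser filter. On simulated data this test called more unchanged probe sets than its threshold allows. With 1 array pair per hour, a changing effect and a deviant array cannot be told apart. AT1G54050 was dim in mock leaves throughout, with signals from 64.0 to 83.7, while AT4G21870 had a mock signal of 2952 at 1 h and 174 at 4 h.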

How the results depend on the processing

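Of 180 log2 ratios of members recomputed with another pseudocount or normalization, 5 moved by more than the residual spread of the probe set, a wide bound, since that spread includes the departure at 4 h. All 5 came with a pseudocount 4 times larger: at 4 h the paraquat/mock ratio was 2.31 for AT2G29500 and 1.71 for AT1G53540, and within paraquat leaves AT1G53540 had 1.61 for 4 h over 2 h and 1.74 for 4 h over 1 h, and AT1G54050 had 2.56 for 4 h over 1 h. The number of members past 2-fold at each hour was within 1.5 times with a 3-fold threshold or another floor, and 4 rather than 5 passed at 4 h at 3-fold.

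The number of probe sets called for the averaged effect, 44, was 0 without the hour block (375 at an unadjusted p under 0.05), 0 without the filter (1821), 1 without the variance trend, and 7 to 71 when an hour was left out. In those fits the mean ratio ran from -0.11 to 0.67 for AT5G37670 and from -0.37 to 1.13 for AT5G51440, negative without 4 h for both. For the change of the effect with hour, 107 called became 311 with the larger pseudocount, 296 after quantile normalization, 337 with centring on the 75th percentile, and 0 without the filter (1958), without the variance trend (1452) and with hour as a straight line (415). Members called numbered 1, against 0, under the larger pseudocount, quantile normalization and centring (AT5G51440 each time, slopes 0.98, 1.25 and 1.29) and with the looser filter (AT1G54050). For the change with hour, 2415 became 1118 without the filter. The cause of these shifts was not tested. Paraquat and mock arrays are paired by hour through the hour block, and the labels carry no replicate numbers for another pairing. Leaving out an hour was not run for the change of the effect with hour, which would have no residual degree of freedom.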
